A study of Mus musculus with 4 samples.

Results

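Hair bundle actin and stereocilia genes are described here through 10 genes, *Strc*, *Myo15*, *Myo7a*, *Myo6*, *Myo3a*, *Eps8*, *Espn*, *Fscn2*, *Grxcr1* and *Grxcr2*, out of 29977 gene names on the array. The members are all genes with a noncontrol probe that carries one of these names in the array files, which gave 12 probes, since *Eps8* and *Espn* have 2 each. Of the 10 genes, 9 were measured, and the same 9 were well above background (the flag of the scanner software for a spot clearly brighter than its surroundings) on all 4 arrays. The probe of *Myo3a* stayed near background everywhere.

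The hair bundle is the mechanosensitive organelle of the hair cell, a staircase of actin-filled stereocilia joined by extracellular links. Unconventional myosins carry cargo to the tips and anchor the bundle at its base, while capping and crosslinking proteins set the length and stiffness of the actin core. Both outer hair cells, which amplify sound, and inner hair cells, which pass it on to the auditory nerve, carry such bundles, and stereocilin, the product of *Strc*, is known for outer hair cell bundles, where it joins stereocilia to each other and to the tectorial membrane.

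Cochlear RNA of mice on the B6J (C57BL/6J) background was measured at 5 weeks of age with 1 array for each of 4 groups, all on 1 slide. WT DT(-) and WT DT(+) are wild-type mice without diphtheria toxin (DT) and with 50 μg/kg of it 7 days before dissection, and OHC-TRECK DT(-) and OHC-TRECK DT(+) are transgenic mice without and with the same treatment. The transgene, also named *Prestin*-*hDTR*, places a modified human HB-EGF, the receptor of the toxin, under the promoter of *Slc26a5* (prestin), so that the toxin is directed at outer hair cells, and the mice come from 1 transgenic line. The series gives n = 8 with 4 females and 4 males, the labels say that males and females were pooled, and with 1 array per group no difference has a replicate check.

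Levels are given as log2 of the intensity over the 75th percentile of the same array, so that 0 is the intensity at that percentile. Intensities of different probes also depend on the probes, so a gene called the brightest of a list, by its mean over the 4 arrays, need not have the most RNA, and summed levels are of use only between arrays. A difference of 1 on this scale is 2-fold, and a gene is called where it differs by 2-fold or more. The range of the 3 other arrays for a gene is used as a yardstick, and its median over 18232 genes well above background on all 4 arrays was 0.14. Probes spotted more than once gave a median SD of 0.0607 to 0.0713 within an array, which covers the spots only.

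The toxin-treated transgenic mice stood apart from all 3 other groups in *Strc*, *Myo15* and *Grxcr2*, while *Eps8* was above all of them and *Myo6* lay within their range. Against OHC-TRECK DT(-), 5 of the 9 measured members were lower by 2-fold or more, beside 1.41% of 21431 genes. Under normexp, an alternative background correction that adds a constant to every intensity, the count was 3 of 9, beside 0.611% of 21433 genes. Against WT DT(+) there were 3 of 9, beside 1.94% of all genes, and against WT DT(-) again 3 of 9, beside 2.05%. These comparisons share the array of OHC-TRECK DT(+). By 2-fold or more, 3 of the 9 were lower in OHC-TRECK DT(+) than in each other group, beside 0.291% of 19235 genes. In bulk cochlear RNA, fewer cells of a type and less RNA per cell cannot be told apart.

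**Figure D1:**
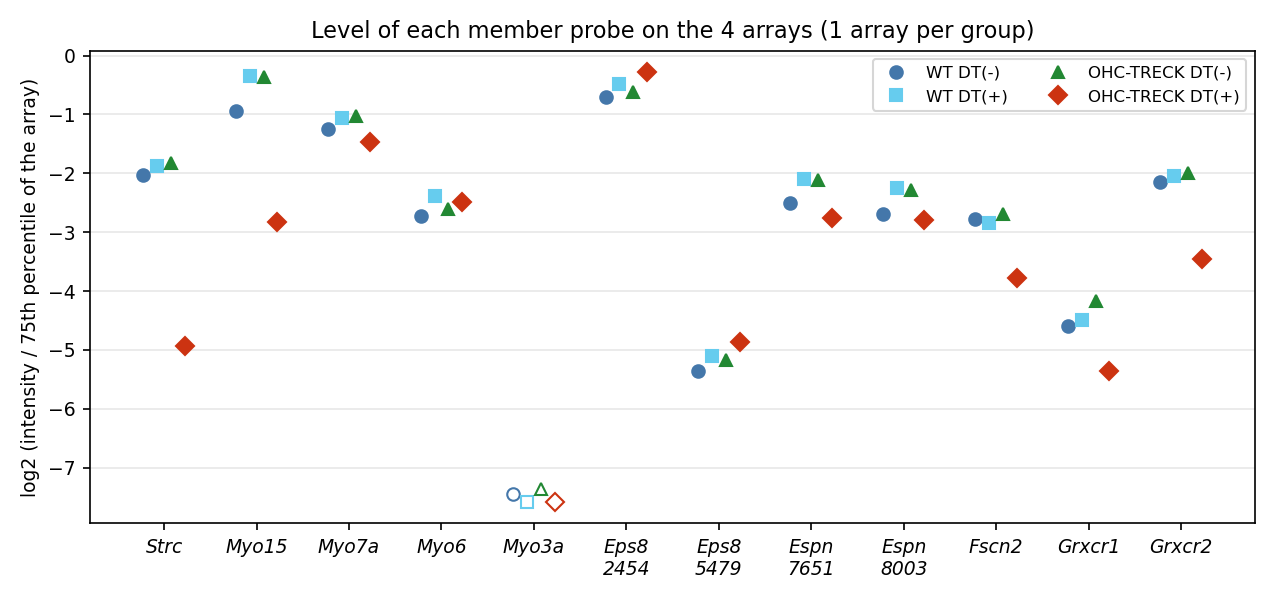
Level of each member probe on the 4 arrays, as log2 of the intensity over the 75th percentile of the array, with 1 point for each group and open points where the probe was not well above background. The last 4 digits of the probe name are given where a gene has 2 probes. *Strc* lies at -4.93 in OHC-TRECK DT(+) and between -2.03 and -1.83 on the other arrays.

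*Strc* encodes the link protein of the members. Its level was -2.03 in WT DT(-), -1.87 in WT DT(+), -1.83 in OHC-TRECK DT(-) and -4.93 in OHC-TRECK DT(+). The 3 other arrays lay close together, with a range of 0.21, and the treated transgenic array was far below all of them. *Strc* fell by 3.10 against OHC-TRECK DT(-), to 11.7% of its level, which is 8.57-fold. The differences from WT DT(+) and WT DT(-) were -3.05 and -2.89, or 8.29-fold and 7.43-fold. Under normexp, *Strc* was at -2.23, -2.19 and -2.06 against OHC-TRECK DT(-), WT DT(+) and WT DT(-). Counted from the lowest value, *Strc* ranked 2 of 21431 genes against OHC-TRECK DT(-), 5 of 19496 against WT DT(+), 7 of 20556 against WT DT(-) and 1 of 21920 against the mean of the 3 other arrays, with bounds for genes under background in OHC-TRECK DT(+). Its probe lies at chr2:121189571-121189630 in mm9.

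Among the motors, *Myo15* encodes myosin XV, which carries the elongation complex to the stereocilia tips. It was at -0.93 in WT DT(-), -0.34 in WT DT(+), -0.36 in OHC-TRECK DT(-) and -2.82 in OHC-TRECK DT(+). The treated transgenic array was the lowest, and WT DT(-) lay below both other controls. The differences of *Myo15* from OHC-TRECK DT(-), WT DT(+) and WT DT(-) were -2.46, -2.48 and -1.89, which left 18.2%, 17.9% and 27.0% of the level in these groups. Its range over the 3 other arrays was 0.59, and its probe lies at chr11:60341812-60341871.

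*Myo7a* encodes myosin VIIa, a motor of the tip link complex that is also made outside hair cells. Its level was -1.24 in WT DT(-), -1.05 in WT DT(+), -1.02 in OHC-TRECK DT(-) and -1.47 in OHC-TRECK DT(+). The last was below all others, yet the difference from WT DT(-) was -0.22, as large as the range of 0.22 over the other arrays. *Myo6*, for the motor that moves towards the base of the actin filaments, was at -2.73, -2.39 and -2.60 in WT DT(-), WT DT(+) and OHC-TRECK DT(-) and at -2.49 in OHC-TRECK DT(+). This lies within the range of the other arrays. *Myo3a*, a motor of the stereocilia tips, had intensities of 15.7, 16.6, 18.3 and 16.4 on the 4 arrays, none of them well above background, and has no fold.

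Of the genes for actin capping and bundling, *Fscn2*, which encodes the crosslinker fascin 2, was lower and *Eps8*, which encodes a capping protein of the tips, was not. *Fscn2* was at -2.78 in WT DT(-), -2.84 in WT DT(+), -2.69 in OHC-TRECK DT(-) and -3.77 in OHC-TRECK DT(+). All 3 other arrays were within 0.15 of each other and above the treated transgenic one. *Fscn2* fell by 1.08 against OHC-TRECK DT(-), which is 2.11-fold, and its folds against WT DT(+) and WT DT(-) were 1.90 and 1.99, short of the call. The call of *Fscn2* against OHC-TRECK DT(-) ends under normexp, with a value of -0.83. The probe of *Fscn2* spans chr11:120223830-120227995.

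*Espn*, for the bundling protein espin, was at -2.51 in WT DT(-), -2.10 in WT DT(+), -2.10 in OHC-TRECK DT(-) and -2.76 in OHC-TRECK DT(+). The treated transgenic array was the lowest, but WT DT(-) was also below the other controls, by 0.41 against WT DT(+). The level in OHC-TRECK DT(+) was 63.6% of that in OHC-TRECK DT(-) and 84.1% of that in WT DT(-). The second *Espn* probe gave 69.9% and 92.5%, and the probes share 18 bases, so they are not independent of each other. *Eps8* was highest in OHC-TRECK DT(+), with -0.71, -0.48 and -0.63 in WT DT(-), WT DT(+) and OHC-TRECK DT(-) and -0.28 in the treated transgenic mice. Its second probe was also highest there, with differences of 0.31, 0.25 and 0.50 from OHC-TRECK DT(-), WT DT(+) and WT DT(-).

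The last pair encodes glutaredoxin-domain proteins of the stereocilia. *Grxcr2* was at 22.6% of the 75th percentile in WT DT(-), 24.1% in WT DT(+), 25.0% in OHC-TRECK DT(-) and 9.14% in OHC-TRECK DT(+). The other arrays spanned 0.15 on the log2 scale, and the treated transgenic array was below them all. The differences of *Grxcr2* from OHC-TRECK DT(-), WT DT(+) and WT DT(-) were -1.45, -1.40 and -1.31, or 2.73-fold, 2.64-fold and 2.47-fold. *Grxcr1* was at -4.60 in WT DT(-), -4.49 in WT DT(+), -4.17 in OHC-TRECK DT(-) and -5.35 in OHC-TRECK DT(+). It was lowest in the treated transgenic mice and differed among the other groups by up to 0.43. *Grxcr1* fell by 1.18 against OHC-TRECK DT(-), and its differences from WT DT(+) and WT DT(-) were -0.86 and -0.75, short of 2-fold. Its level in OHC-TRECK DT(+) was close to -5.44, the lowest signal well above background on that array, so these sizes rest on a value near the detection limit. Under normexp the value of *Grxcr1* against OHC-TRECK DT(-) was -0.63, which is no call. Its probe lies at chr5:68557514-68557573.

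**Figure D2:**
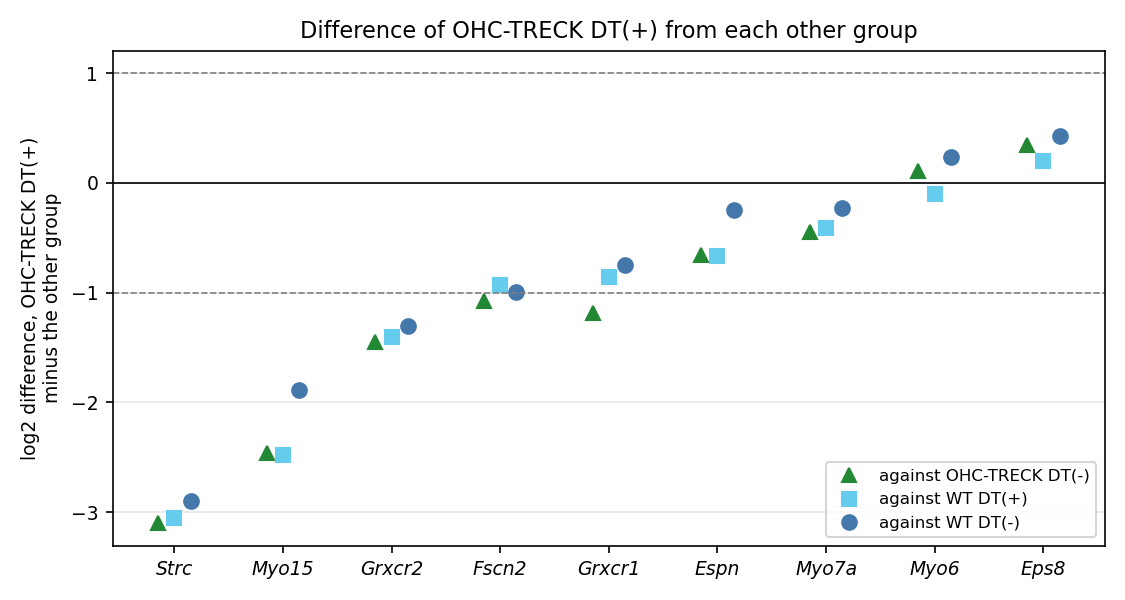
Difference on the log2 scale between OHC-TRECK DT(+) and each other group for the 9 measured members, ordered by the difference from the mean of the 3 other arrays, with dashed lines at 2-fold. *Strc*, *Myo15* and *Grxcr2* lie below the lower dashed line in all 3 comparisons, and *Eps8* lies above 0 in all 3.

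At any size, 7 of the 9 measured members were below all 3 other arrays in OHC-TRECK DT(+), beside 34.9% of 18232 genes. For the same number, 7 of 9, the value lay below the mean of the other arrays by more than their range, beside 22.6%. *Myo6* and *Eps8* are the exceptions in both counts, and *Eps8* was above all 3 other arrays. These directions were the same under each of the 8 ways of processing the arrays. The order of the differences from that mean was *Strc*, *Myo15*, *Grxcr2*, *Fscn2*, *Grxcr1*, *Espn*, *Myo7a*, *Myo6* and *Eps8*. Under normexp *Strc* and *Myo15* were level against that mean, at -2.16 and -2.14. *Myo15* was then the lower against OHC-TRECK DT(-), at -2.30, and WT DT(+), at -2.35, but not against WT DT(-), at -1.79. *Fscn2* and *Grxcr1*, with 50.0% and 52.5% of that mean left, differ by less than the range of *Grxcr1* over the other arrays. Under normexp their values were -0.78 and -0.50, and this gap was larger than the range of *Grxcr1*, then 0.20. *Espn* and *Myo7a*, at -0.52 and -0.36, differ by less than the range of *Espn*, and *Myo6* and *Eps8*, at 0.09 and 0.32, by less than that of *Myo6*.

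*Strc* is taken as the gene restricted to outer hair cells, and the 8 other measured members as shared with inner hair cells. Against the mean of the 3 other arrays, *Strc* was at -3.02 and the 8 shared members had a median of -0.73, a gap of -2.29, or -1.67 under normexp. The gap was -2.23 against OHC-TRECK DT(-), -2.29 against WT DT(+) and -2.39 against WT DT(-). The shared members ranged from -2.28 for *Myo15* to 0.32 for *Eps8* against the mean, and under normexp *Strc* was not lower than *Myo15* against OHC-TRECK DT(-) and WT DT(+). The 4 that are mainly made by hair cells in the cochlea, *Myo15*, *Fscn2*, *Grxcr1* and *Grxcr2*, had a median of -1.19. The 4 that are also made outside hair cells, *Myo7a*, *Myo6*, *Eps8* and *Espn*, had a median of -0.14. The restricted side holds 1 gene, so its spread is unknown and the gap is that of *Strc* alone.

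Reference genes of the hair cells were set beside the members. The paper names *Ocm*, *Chrna9*, *Chrna10*, *Pou4f3*, *Gfi1*, *Lhx3* and *Barhl1* among the genes lowered on these same arrays. Since the lists were chosen with earlier results known, their counts of lower genes are no independent check. Of the outer hair cell list, 4 of 8 were lower by 2-fold or more than in each other group, beside 0.291% of 19235 genes. These were *Ocm*, *Chrna9*, *Chrna10* and *Lmod3*, at -2.33, -2.56, -2.77 and -1.10 against the mean of the 3 other arrays. *Ikzf2* was at -0.06 and *Lbh* at -0.07. *Slc26a5* was not well above background in OHC-TRECK DT(+), and it was at least 1.31-fold, 1.96-fold and 1.47-fold lower there than in OHC-TRECK DT(-), WT DT(+) and WT DT(-). A second probe of *Chrna9* was at -0.21.

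In the inner hair cell list 0 of 4 genes were called, beside 0.291% of 19235 genes, at which 0 of 4 says nothing of them. *Slc17a8* was at -0.44, *Otof* at -0.59, *Calb2* at -0.63 and, as a bound, *Fgf8* at -0.58. The first 3 were well above background on all 4 arrays. Each lay below the mean of the other arrays by more than the range of those arrays, beside 22.6% of 18232 genes. The shared hair cell list had 3 of 8 lower by 2-fold or more than in each other group, beside the same 0.291%. These were *Pou4f3* at -1.49, *Gfi1* at -1.69 and *Lhx3* at -1.62. *Cabp2* was at -0.78, *Atp2b2* at -0.47, *Pvalb* at -0.35 and *Rasd2* at 0.84. *Barhl1* was at -0.02 by its brighter probe and at -1.90 by the other one. Medians against the mean of the other arrays were -0.89 for the outer, -0.62 for the shared and -0.59 for the inner hair cell list. The outer and inner medians are bounds, since *Slc26a5* and *Fgf8* have only a bound. The 8 shared members had a median of -0.73. Without normexp, *Strc* was below each gene named from these 3 lists apart from *Slc26a5* and *Fgf8*, which have only a bound. *Myo15*, at -2.28, then lay between *Ocm* and *Gfi1*, but differed from each by less than its own range of 0.59 over the other arrays. The other *Barhl1* probe lay between *Myo15* and *Gfi1*. Under normexp *Strc* was at -2.16, and its order against these genes was not tested.

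Of 47 other hair bundle genes, 45 were measured. In OHC-TRECK DT(+), 4 of the 43 compared with each other group were lower by 2-fold or more, beside 0.291% of 19235 genes. Higher by 2-fold or more were 0 of 43, beside 1.22%, and at that share a count of 0 says nothing of them. The 4 lower genes were *Tmc1*, a channel subunit, *Tomt*, which is needed to bring that channel to the bundle, *Clrn2*, a clarin, and *Pjvk*, which encodes pejvakin. Under normexp the count of lower genes was 2. Without it, their differences from the mean of the other arrays were -1.36, -1.40, -1.07 and -1.42. With *Ptprq*, at least 3.06-fold lower than in OHC-TRECK DT(-) but only at least 1.19-fold lower than in WT DT(-), they have the 5 lowest values. A second *Ptprq* probe, well above background on 3 of the 4 arrays, was at -0.70 against that mean and at 0.01 against WT DT(-). The 3 highest were *Ush1c*, *Ezr* and *Tprn*, at 0.28, 0.27 and 0.27.

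By role, links and transduction had a median of -0.59 over the 12 genes compared with each other group. It is itself a bound, since it rests in part on *Pdzd7*, not well above background in OHC-TRECK DT(+). The median was -0.01 over 8 genes for scaffolds and polarity and -0.02 over 23 for actin, motors and membrane anchors, beside -0.0017 over 19235 genes. By 2-fold or more, 3 of 12 link and transduction genes and 1 of 8 scaffold genes were lower than each other group. For actin genes it was 0 of 23. The share of all genes was 0.291% of 19235, at which 0 of 23 says nothing of the actin genes. Under normexp the roles together had 2 such genes. The members that handle actin, *Eps8*, *Espn* and *Fscn2*, were at 0.32 and -0.52 and, for *Fscn2*, at 50.0% of the mean. *Cdh23* gave no signal above background. *Lhfpl5* was at -0.95 by its brighter probe and at -0.03 by its other probe. *Loxhd1* was at -0.04 by its brighter probe, while a dimmer one, not well above background in OHC-TRECK DT(+), had bounds of -1.65, -1.73 and -1.13 against OHC-TRECK DT(-), WT DT(+) and WT DT(-).

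**Figure D3:**
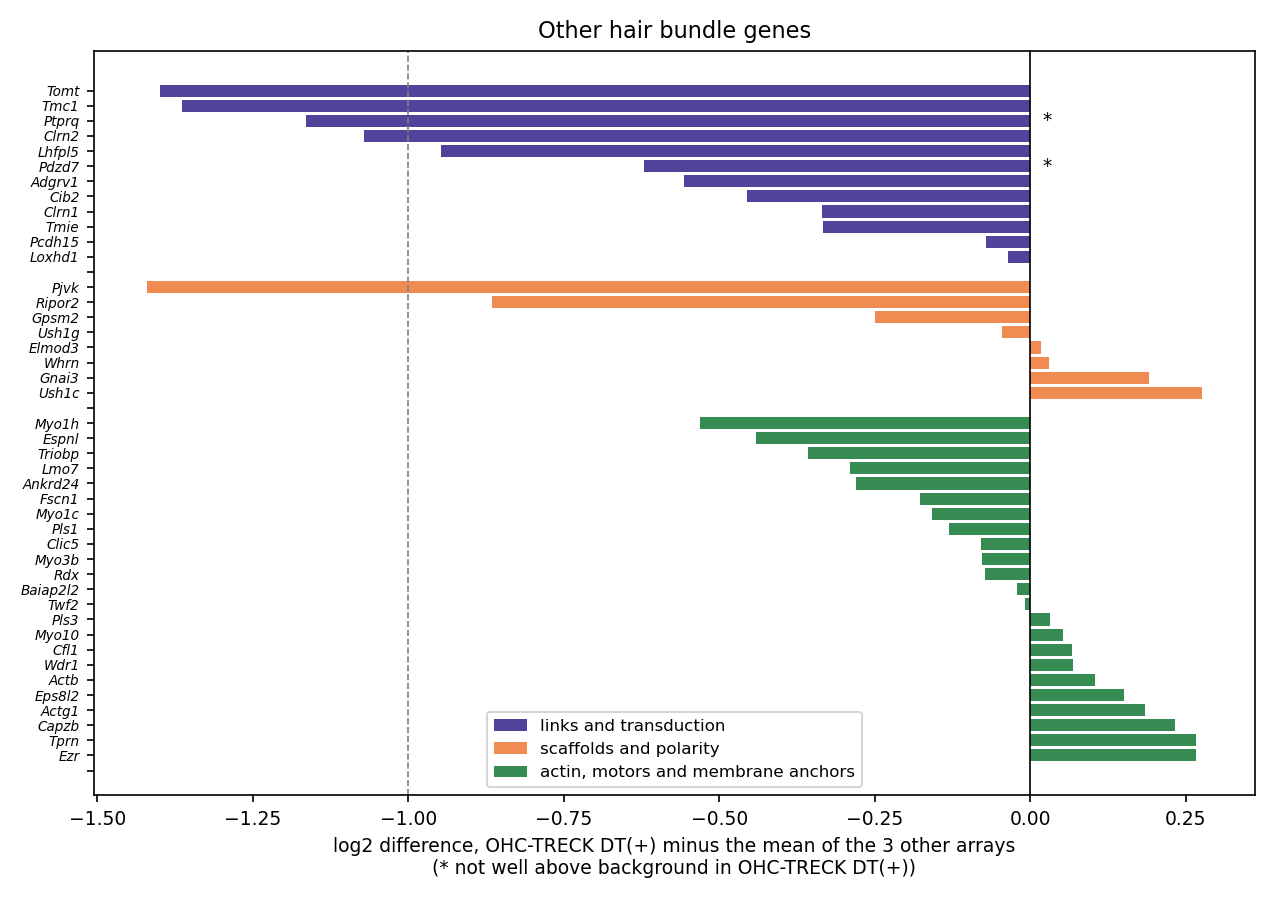
Difference on the log2 scale between OHC-TRECK DT(+) and the mean of the 3 other arrays for the 43 other hair bundle genes compared with each other group, grouped by role, with a dashed line at 2-fold lower. *Tomt*, *Tmc1*, *Ptprq*, *Clrn2* and *Pjvk* pass the dashed line, and stars mark genes not well above background in OHC-TRECK DT(+), whose bars are bounds.

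The 3 groups without ablation were also set against each other. Between WT DT(+) and WT DT(-), 0 of 9 measured members differed by 2-fold or more in either direction, beside 2.67% of 20485 genes, and the median difference was 0.19. Between OHC-TRECK DT(-) and WT DT(-) there were 0 of 9, beside 3.46% of 21632 genes, with a median of 0.21. At such shares of all genes, a count of 0 among 9 says nothing of the members. Over the 3 groups, the ranges of the members lay from the 50.0th percentile of 18232 genes well above background on all 4 arrays, for *Grxcr2*, to the 95.0th, for *Myo15*, with *Grxcr1* at the 91.4th and *Espn* at the 90.7th. The largest differences were those of *Myo15*, at 0.59 and 0.58, so that WT DT(-) stood apart from both other controls. *Gfi1*, *Lhx3* and *Ptprq* were also lower there, by 0.93, 0.86 and 1.39 on the log2 scale against WT DT(+).

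Macrophage markers separated the treated transgenic array from the others. All 8 macrophage genes were higher there than on each other array, beside 33.5% of 18232 genes, with a median of 0.87, from *Csf1r*, the brightest, at 0.50 to *Cd68* at 1.31. Of the 8, 3 were higher by 2-fold or more than in each other group, beside 1.22% of 19235 genes. The summed level of that list was 14.4 in WT DT(-), 13.5 in WT DT(+), 12.5 in OHC-TRECK DT(-) and 22.1 in OHC-TRECK DT(+), in units of the 75th percentile. Their part in the differences of the members was not tested.

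The supporting cell list had a median of 0.05 over 8 genes, with *Gjb6* the brightest at 0.18, though *Gjb2*, at 0.26, was above it in both OHC-TRECK groups, *Epyc* the highest at 0.56 and *Aqp4* the lowest at -0.57. Spiral ganglion neuron genes had a median of -0.24 over 7, with *Nefl* at -0.21, *Prph* at 0.50 and *Slc17a7* at -0.38. Neutrophil genes separated the controls from each other, with a summed level of 36.1 in WT DT(-), 56.0 in WT DT(+), 13.0 in OHC-TRECK DT(-) and 21.2 in OHC-TRECK DT(+). Against the mean of the other arrays, *S100a9* was at -0.40, *Camp* at -0.93 and *Elane* at -0.15, with a median of -0.47 over 6.

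Melanocyte genes had a median of 0.29 over 4, with *Dct* at 0.13, *Tyr* at 0.95 and *Pmel* at -0.16. Erythroid genes had a median of 0.11 over 4, with *Hba-a1*, the brightest and the highest, at 0.19. The vestibular pair, *Oc90* and *Otop1*, was at 0.24 and 0.06. Of 4 skeletal muscle genes, 3 were measured, with *Acta1* at -0.33. *Tnnt3* was well above background in OHC-TRECK DT(-) alone and has no value here, and *Ckm* gave no signal above background.

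By the distance between 4-array profiles, each centred on its own mean, the nearest named genes to *Strc* among 18232 were *Chrna10*, at a distance of 0.25, *1700016D02Rik*, at 0.43, and *Chrna9*, at 0.45. The other 2 of the nearest 5 were probes without a gene name, at 0.50 and 0.59. Nearest to the median profile of the members were *E230025N22Rik*, *4833411C07Rik*, *Ccr6*, *Cfap161* and *Crip3*, at 0.10 to 0.11.

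Stretches of 30 bases show what the key probes read, in mm9 coordinates and on the minus strand except for *Myo15*. The *Strc* stretch lies at chr2:121189601-121189630 and that of *Myo15* at chr11:60341812-60341841. Those of *Espn*, at chr4:151495230-151495259 and chr4:151495218-151495247, have the 18 shared bases in capitals.

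*Strc*: taagtggatgaggattgtgggtaaaattcc

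*Myo15*: accaggtacacatgtgatgcagacatatgt

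*Espn*, first probe: atcttgaagaagGGGGAGATCCCTAAGTAA

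*Espn*, second probe: GGGGAGATCCCTAAGTAAtaggagtctctc

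Promoter windows from RefSeq were at hand for 8 of the 10 members. *Myo15* and *Grxcr1* are shown, being members called against OHC-TRECK DT(-) whose window holds a motif and ends at the edge of the gene, by the 250 bases before the gene start in GRCm38.p6, at chr11:60469089-60469338 and chr5:68031585-68031834, both on the plus strand. Capitals mark CAGCTG, found in 13.0% of 32851 such windows, and TAATTA, found in 4.84%, on either strand. The members have 11 windows, 3 of them of *Espn*. CAGCTG was in 3 of the 11, of *Myo15* and *Espn*, TAATTA in 2, of *Espn* and *Grxcr1*, and CAGATG, found in 14.4% of all windows, in 0. The windows of *Strc* and *Fscn2*, which also fell against OHC-TRECK DT(-), held none of these motifs. A match of letters is a description of the window only.

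*Myo15*: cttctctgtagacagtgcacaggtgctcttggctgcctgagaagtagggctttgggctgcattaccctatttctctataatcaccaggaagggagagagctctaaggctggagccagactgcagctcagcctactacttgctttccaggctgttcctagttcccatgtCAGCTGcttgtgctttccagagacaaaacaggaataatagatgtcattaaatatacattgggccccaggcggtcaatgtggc

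*Grxcr1*: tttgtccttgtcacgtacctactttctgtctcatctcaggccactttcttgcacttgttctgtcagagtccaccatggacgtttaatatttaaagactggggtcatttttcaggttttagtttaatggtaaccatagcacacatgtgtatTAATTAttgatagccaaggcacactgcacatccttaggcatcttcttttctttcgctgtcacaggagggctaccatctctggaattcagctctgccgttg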

How the data were processed

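The authors labelled cochlear RNA with Cy3 and hybridised it to 1 Agilent array per group. The intensity the authors deposited is linear and was corrected for background by Feature Extraction 11.5.1.1, without scaling between arrays; their deposited value table holds the same intensity divided by a constant per array. Control spots and 149 to 228 outlier spots per array were left out. The mean of the spots of a probe was taken, and signals were scaled to the 75th percentile of noncontrol probes within the array. A signal not well above background was raised to the lowest signal on that array that was, so that a fold against it is "at least". The brightest probe of each gene, by mean over the 4 arrays, stands for the gene. Probes well above background made up 62.2% to 70.6% of 39429. For 29803 probes the RefSeq table held the symbol, 1635 were named through an accession, 295 through a synonym, and 7696 kept the array name.

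Groups follow the sample titles. No test was made with 1 array per group. The members, the gene lists and the naming rule were chosen with earlier results of these data known. Some results under the naming rule are not reported here. Named are all members, the hair cell reference genes, other bundle genes called or among the 5 lowest and 3 highest, of each further marker list the brightest, highest and lowest gene, and the 5 nearest profiles; *Gfi1*, *Lhx3* and *Ptprq* were set beside the controls, and *Gjb2*, the motifs and the second probes of listed genes were chosen, after their values were seen. The 7 preset alternatives concern background correction (normexp of limma, offset 50), scaling, source, probes, floor and filter, and 3 that leave out a control array were added after the data were seen. The steps were tested on simulated data. Python 3.11.15, numpy 2.4.6, pandas 2.3.3, matplotlib 3.10.9, R 4.3.3 and limma 3.58.1 were used.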

Additional observations from a re-analysis of the deposited data

Results flagged for a closer look

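In 6 of the 9 measured members, the array with toxin was lower than the one without it in the transgenic mice and higher in the wild-type mice, beside 18.3% of 18232 genes well above background on all 4 arrays. The toxin effect in OHC-TRECK minus that in WT, on the log2 scale, was -3.26 for *Strc*, -3.05 for *Myo15*, -1.55 for *Grxcr2*, -1.29 for *Grxcr1*, -1.07 for *Espn* and -0.64 for *Myo7a*. Under normexp, an alternative background correction that adds a constant to every intensity, these values were -2.37, -2.86, -1.18, -0.66, -0.93 and -0.60, in the same order of genes. With 1 array per group, these differences were not tested. In the wild-type mice the difference ran from 0.09 for *Grxcr2* to 0.59 for *Myo15*. For *Grxcr2* and for *Grxcr1*, at 0.10, it was close to 0.101, the limit taken from the spread of repeated spots. That limit covers the spots within an array only. Over 18689 genes the SD of the same wild-type difference was 0.26. The values of *Strc*, at 0.16, and *Myo7a*, at 0.19, were also below this SD, and those of *Espn*, at 0.41, and *Myo15* were above it. In all 6 genes WT DT(-) was also the lowest of the control arrays. For *Fscn2*, lower with toxin in both genotypes, the same value was -1.01, or -0.74 under normexp.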

How the results depend on the processing

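Under all 7 preset alternatives, 3 members were lower by 2-fold or more than in each other group, and 0 members were called between the control groups. With normexp, which adds an offset of 50 to every intensity, the gap between *Strc* and the shared members was -1.67, the median of the members against the mean of the other arrays -0.50, and the count of other hair bundle genes 2; the cause was not tested. With normexp *Fscn2* and *Grxcr1* were no longer called against OHC-TRECK DT(-), at -0.83 and -0.63. The other 6 preset alternatives moved none of these values by more than 0.101, a limit taken from the spread of repeated spots, and kept the counts within 1.5 times. Of 36 single-gene differences, 19 moved by more than that with normexp, 1 with quantile normalization and 0 with the 5 others.

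Leaving out each control array in turn, chosen after seeing the data, gave 3 members each time, 4 to 5 other hair bundle genes, a gap of -2.34 to -2.25 for *Strc* and a median of -1.003 to -0.804 for the members, the latter without OHC-TRECK DT(-). No called value changed sign. No paired analysis was possible because each group has 1 array, and no test was made. The number of arrays limits the precision, and signal over background leaves *Myo3a* without a value.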
